A study of Mus musculus with 3 samples.

Results

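The Ifit genes encode interferon-induced proteins with tetratricopeptide repeats and lie side by side on mouse chromosome 19. The 6 genes described here are Ifit1, Ifit2, Ifit3, Ifit3b, Ifit1bl1 and Ifit1bl2. They were chosen by gene symbol out of 55536 annotated genes, and all 6 were found in every table. RNA was taken from the chromatin fraction of bone-marrow-derived macrophages of the mouse strain C57BL/6J, a fraction that holds transcripts still being made or not yet released from the template. All 3 libraries had the same treatment, which was Lipid A at 100 ng/ml for 12 h, 12 h after it was washed out, and Lipid A at 100 ng/ml again for 60 min. Lipid A is the part of bacterial lipopolysaccharide that Toll-like receptor 4 recognises. The libraries are called replicates 1, 2 and 3, and were made from 1000, 250 and 500 ng of RNA. No untreated or once-treated sample was analysed here, so every value is a level in these cells and not a response. The labels give the same donor entry for all 3 and do not say whether animals or cultures were separate, so a p-value covers no more than the spread among these 3 samples, which may be technical.

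As background, Toll-like receptor 4 activates the factor IRF3, which can switch on Ifit genes directly and which induces interferon beta. Secreted interferon then acts through its receptor on the cell surface, and the signal ends at interferon-stimulated response elements in promoters. Ifit1 binds RNA whose cap lacks ribose methylation, as on some viral RNAs, and blocks its translation. Ifit2 also binds RNA, and human IFIT3 is known to stabilise IFIT1. Ifit3b is a near copy of Ifit3, and Ifit1bl1 and Ifit1bl2 are relatives of Ifit1.

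Gene expected counts summed to 12602702, 17222239 and 17042691 in replicates 1, 2 and 3, where 3 counts correspond to a CPM, the count scaled by the library sum, of 0.238, 0.174 and 0.176. Of the macrophage markers 6 of 6 were detected, with summed levels of 541 to 952 TPM (an abundance scaled by transcript length and library). Of the markers of other cells, all 4 of neutrophils, 3 of T or NK cells and 3 of B cells had at most 3 counts in each library. Of the 3 markers of plasmacytoid dendritic cells, Siglech had at most 1 count, while Tcf4 had 2610, 2836 and 3061 counts and Bst2, itself an interferon-stimulated gene, had 609, 445 and 308 counts in replicates 1, 2 and 3, and their part in the values below was not tested. The 6 markers of fibroblasts or stromal cells summed to 0, 585 and 2.08 TPM in replicates 1, 2 and 3, so that replicate 2 stands apart. In bulk samples, fewer cells of a type and less RNA per cell cannot be told apart. The part of this stromal RNA in the values below was not tested, and member levels without replicate 2 are given beside them. Small RNA genes took 64.6, 45.9 and 52.7% of TPM in replicates 1, 2 and 3, and this share sets the scale of all other genes within a library.

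The 6 genes spanned 99.3 kb, and their chromatin RNA differed over a wide range. Ifit3 and Ifit2 were the most abundant, Ifit1 came next, Ifit3b and Ifit1bl1 were low and Ifit1bl2 was near the limit of counting. Ifit3 (ENSMUSG00000074896.3, mm10 chromosome 19, 34583531 to 34588731, + strand) had 317, 237 and 169 TPM in replicates 1, 2 and 3, from 7350, 4645 and 3611 expected counts. Ifit2 (ENSMUSG00000045932.12, chromosome 19, 34550694 to 34576419, + strand) had 265, 226 and 184 TPM from 14080, 10667 and 9372 counts. These ranges overlapped, and Ifit3 was above Ifit2 in replicates 1 and 2 and below it in replicate 3. Ifit1 (ENSMUSG00000034459.8, chromosome 19, 34640871 to 34650009, + strand) had 73.3, 63.5 and 76.9 TPM from 2670, 2015 and 2637 counts. In all 3 libraries it lay below Ifit2 and above Ifit3b.

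Ifit3b (ENSMUSG00000062488.9, chromosome 19, 34607970 to 34613401, + strand) had 23.2, 16.2 and 7.93 TPM from 623, 373 and 198 counts. Ifit1bl1 (ENSMUSG00000079339.7, chromosome 19, 34592891 to 34601956, − strand) had 11.7, 7.98 and 4.03 TPM from 348, 205 and 112 counts. Within every library Ifit3b was above Ifit1bl1, although their ranges over the libraries overlapped. Ifit1bl2 (ENSMUSG00000067297.5, chromosome 19, 34617049 to 34640743, − strand) had 0.50, 0.53 and 0.25 TPM from 23.2, 22.0 and 11.0 counts. The deposited intervals of its TPM were 0.302 to 0.686, 0.310 to 0.720 and 0.119 to 0.393, which overlapped each other.

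As means over the 3 libraries, Ifit3 had 241 ± 73.9 TPM, Ifit2 225 ± 40.3 TPM and Ifit1 71.2 ± 6.95 TPM (SD, n = 3). Ifit3b had 15.8 ± 7.63 TPM, Ifit1bl1 7.90 ± 3.83 TPM and Ifit1bl2 0.427 ± 0.154 TPM (SD, n = 3). Without replicate 2, the library with stromal RNA, the means were 243 TPM for Ifit3, 225 TPM for Ifit2, 75.1 TPM for Ifit1, 15.6 TPM for Ifit3b, 7.86 TPM for Ifit1bl1 and 0.375 TPM for Ifit1bl2. Together the 6 genes took 0.199, 0.104 and 0.0935% of all expected counts in replicates 1, 2 and 3. Ifit3 held 42.4 ± 3.86%, Ifit2 40.3 ± 1.74% and Ifit1 13.2 ± 3.66% of the summed TPM of the cluster (SD, n = 3), and the other 3 genes held the rest.

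**Figure D1:**
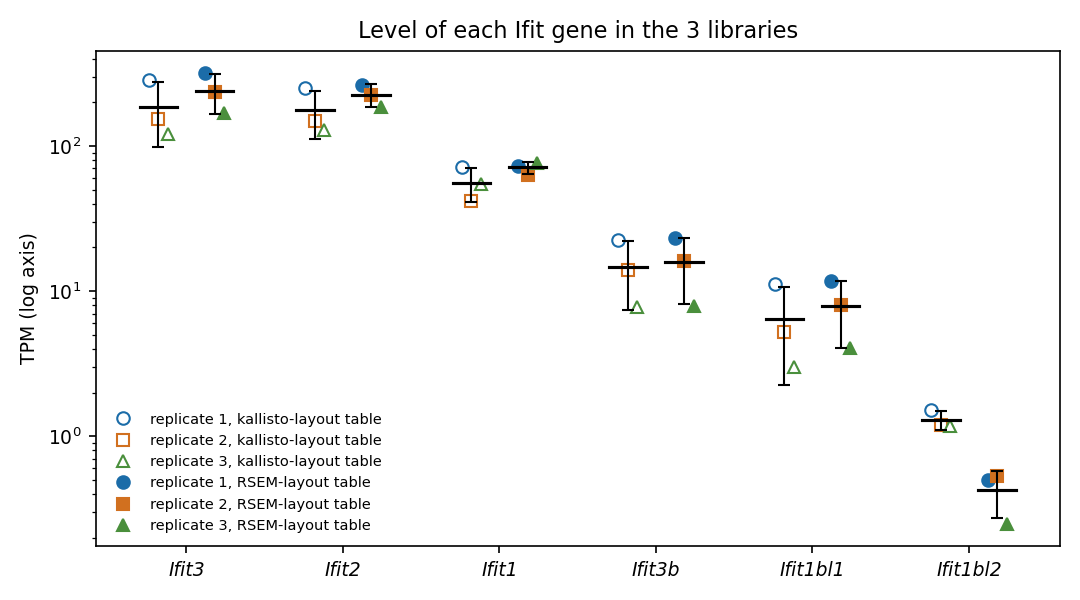
TPM on a log axis for each Ifit gene, with kallisto-layout values as open symbols left of RSEM-layout values as filled symbols. Each symbol is 1 library, and horizontal lines with bars are means and SD over 3 libraries. Ifit3 and Ifit2 overlap at the top, and Ifit1bl2 lies lowest in either table.

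The order was tested between neighbours by the log2 ratio of TPM within each library, with exact two-sided sign-flip permutation tests over the 3 libraries, for which the smallest possible p is 0.25. No such test can pass 0.05, so the order rests on values and ranges. Ifit3 over Ifit2 had a log2 ratio of 0.07 ± 0.19 (SD) and was positive in 2 of 3 libraries (exact p = 0.75). Ifit2 was above Ifit1 by 1.65 ± 0.34, Ifit1 above Ifit3b by 2.30 ± 0.86, Ifit3b above Ifit1bl1 by 0.99 ± 0.02 and Ifit1bl1 above Ifit1bl2 by 4.16 ± 0.34 on the log2 scale. Each of these 4 differences had the same direction in 3 of 3 libraries (exact p = 0.25). In CPM, which is not divided by transcript length, Ifit3 over Ifit2 was −1.17, since the Ifit2 transcript is 3818 bases long and that of Ifit3 1745 bases.

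The genes around the cluster had less chromatin RNA than Ifit1, Ifit2 or Ifit3. Within 200 kb of the cluster on either side the annotation lists 14 other genes, of which 9 had at most 3 counts in each library. The nearest neighbour outside the cluster with more than 3 counts was Lipa, the lysosomal acid lipase gene, with 11.0, 24.1 and 9.65 TPM in replicates 1, 2 and 3. Like 77.1% of protein-coding genes with a mean of at least 1 TPM, Lipa was highest in replicate 2, the library with stromal RNA. Ch25h, which makes the antiviral oxysterol 25-hydroxycholesterol, had 1.28, 0.87 and 1.42 TPM from 23, 13 and 23 counts. Its overlapping partner Gm26902, on the other strand, had 6, 2 and 5 counts, and reads of these genes cannot be told apart without a stated strand setting. On the other side of the cluster Slc16a12, a monocarboxylate transporter gene, had 2, 0 and 2 counts and Pank1, a pantothenate kinase gene, had 3, 15 and 1. The processed pseudogene AC016791.2, on the opposite strand inside the span of Ifit1bl2, had 1, 4 and 2 counts. AC102249.1, AC016791.1, AC125259.1, AC125259.2, Gm23060, Gm27476, Gm22082 and Mir107 had 0 expected counts in each library. In the kallisto layout, however, the microRNA gene Gm23060 had 0, 21.5 and 0 TPM in replicates 1, 2 and 3. Pank1 had 0.50, 1.42 and 2.07 TPM there, against 0.03, 0.40 and 0.03 TPM in the RSEM layout.

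**Figure D2:**
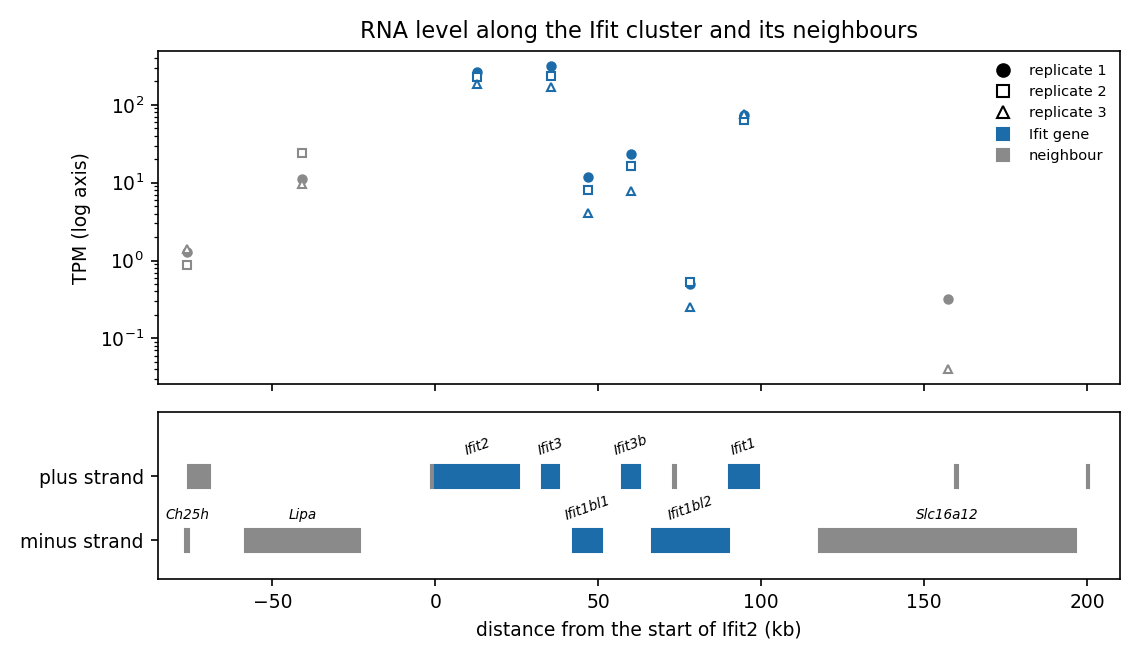
TPM on a log axis (top) and gene spans by strand (bottom) against distance from the start of Ifit2 in kb. Symbols are libraries at the middle of each gene, blue for Ifit genes and grey for the neighbours Ch25h, Lipa and Slc16a12, and values of 0 are not drawn. Ifit3, Ifit2 and Ifit1 stand above every neighbour drawn in all 3 libraries.

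Several members are similar enough in sequence that reads can fit more than one of them. Ifit3 and Ifit3b were the closest pair, with coding sequences of 1212 bases each that were identical at 99.1% of positions and differed at 11. Their longest identical coding stretch was 329 bases. Of all 31-base words in the Ifit3 transcript, 61.8% also occur in Ifit3b, and 54.1% of those of Ifit3b occur in Ifit3. Of words wholly inside the coding part, 78.1% were shared for either gene. Of the other words, 25.7% were shared for Ifit3 and 17.4% for Ifit3b, so sequence outside the coding part also tells them apart. The 90-base coding window with the most differences, bases 199 to 288 counted from the start codon, is shown because only such positions separate the 2 coding sequences. It is given on the sense strand (GRCm38, the same assembly as mm10) with the 4 differing bases in capitals.
Ifit3: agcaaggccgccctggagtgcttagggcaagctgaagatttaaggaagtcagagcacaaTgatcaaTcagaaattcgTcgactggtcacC
Ifit3b: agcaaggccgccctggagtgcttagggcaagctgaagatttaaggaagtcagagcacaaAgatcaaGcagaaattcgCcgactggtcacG
Outside the capitals, these stretches are the same.

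The Ifit1 relatives shared less. The coding sequences of Ifit1bl1 and Ifit1bl2 were identical at 88.3% of aligned bases, those of Ifit1 and Ifit1bl1 at 76.1% and those of Ifit1 and Ifit1bl2 at 75.9%. Ifit1 and Ifit1bl2 nevertheless shared an unbroken coding run of 180 bases, against 58 bases for Ifit1 and Ifit1bl1. Of the 31-base words of the Ifit1 transcript, 9.62% occur in another member, and for Ifit1bl2 the share was 15.8%. Ifit2 shared no word with any other gene, and its coding sequence was identical to those of the other members at 56.4 to 62.3% of aligned bases. Counts of Ifit3 and Ifit3b therefore depend on how reads were divided, and those of Ifit2 do not at this word length.

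**Figure D3:**
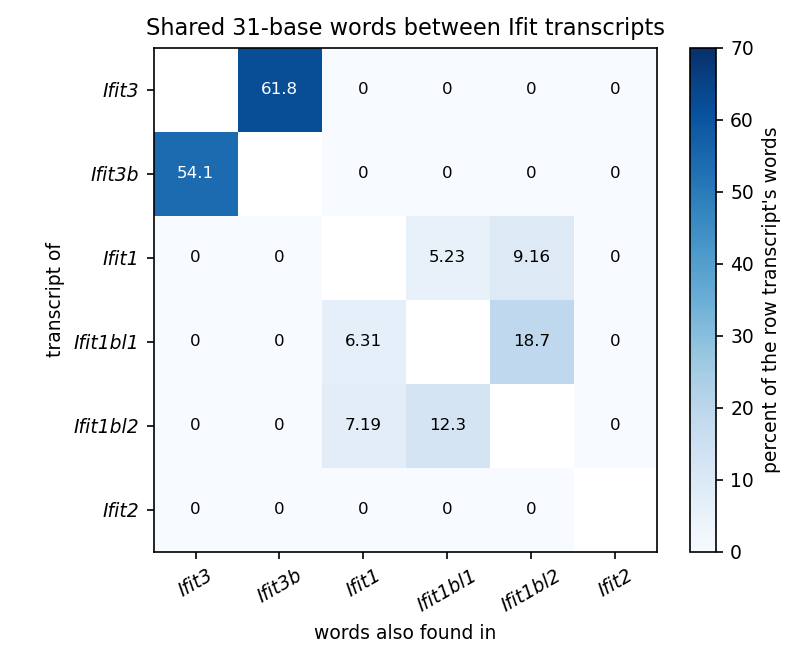
Percent of 31-base words in the transcript of the row gene that also occur in a transcript of the column gene, for the transcript of each gene with the highest mean TPM. Ifit3 and Ifit3b share 61.8 and 54.1%, the 3 Ifit1 relatives share 5.23 to 18.7%, and Ifit2 shares none.

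In the RSEM-layout tables the shared reads stayed within these sets. Expected counts were fractional for Ifit3 and Ifit3b, yet their sums were 7973, 5018 and 3809 to 2 decimals in replicates 1, 2 and 3. The sums of Ifit1, Ifit1bl1 and Ifit1bl2 were likewise whole, with 3041, 2242 and 2760 counts. The deposited posterior SD of the count, which measures how uncertain the division was, came to 15.2, 8.21 and 6.07 counts for Ifit3 in replicates 1, 2 and 3 and to the same values for Ifit3b. It was at most 0.207% of the count of Ifit3 and 2.20 to 3.07% of that of Ifit3b. For Ifit2 it was 0. Within the RSEM layout, the division of reads thus left an SD that is small beside the differences between libraries for both Ifit3 and Ifit3b.

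The transcript tables in the kallisto layout, made from the reads without a genome alignment, gave a second division. They assigned Ifit3 8677, 5713 and 4337 counts and Ifit3b 785, 615 and 327 counts in replicates 1, 2 and 3. The share of Ifit3b in the sum of the pair was 8.30, 9.72 and 7.01% with kallisto, against 7.82, 7.43 and 5.19% with RSEM. It was higher with kallisto in all 3 libraries. Ifit3 over Ifit3b was 12.8, 10.8 and 15.5 in kallisto TPM, against 13.7, 14.6 and 21.4 in RSEM-layout TPM. Either table put Ifit3 more than 10-fold above its near copy.

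Ifit1bl2 was the member on which the tables differed most. It had 93.2, 93.0 and 86.9 kallisto counts, against 23.2, 22.0 and 11.0 expected counts, or 4.03, 4.22 and 7.89 times as many. For Ifit2 the same ratio was 1.22, 1.22 and 1.17, for Ifit1 1.27, 1.24 and 1.20 and for Ifit3 1.18, 1.23 and 1.20. For Ifit1bl1 it was 1.24, 1.25 and 1.25, and for Ifit3b 1.26, 1.65 and 1.65. Over all annotated genes it was 1.55, 1.78 and 1.74, so these members gained less in kallisto than the library as a whole and Ifit1bl2 more. In kallisto TPM, Ifit1bl2 had 1.53, 1.20 and 1.17, against 0.50, 0.53 and 0.25 in the RSEM layout.

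Ratios of kallisto TPM over RSEM-layout TPM, each plus 0.5, were tested against 0 on the log2 scale with limma, over 19070 genes with a mean of at least 1 TPM. The test called 46.2% of these genes higher and 0.766% lower in kallisto at a Benjamini-Hochberg adjusted p of 0.05. Of the 11496 protein-coding genes among them, 4194 were called higher and 36 lower, with a median log2 ratio of 0.38. Of the 6 members, Ifit1bl2 did not pass the filter on low values, and of the other 5 none was called in either direction at the adjusted or at an unadjusted p of 0.05. Their log2 ratios were −0.42 (SE 0.16) for Ifit3, −0.40 (SE 0.17) for Ifit2, −0.37 (SE 0.17) for Ifit1, −0.33 (SE 0.16) for Ifit1bl1 and −0.09 (SE 0.13) for Ifit3b, with limma adjusted p from 0.101 to 0.590. Over all genes tested the median was 0.61, and 2.63% of genes had a lower ratio than Ifit3. With the deposited posterior mean TPM in place of RSEM-layout TPM, 21.7% of 22666 genes had a lower ratio than Ifit3, and the median was 0.30. After the data had been seen, ratios were also centred on the median of each library, which was 0.59, 0.44 and 0.72. All 5 members were then called lower by limma, at −0.67 to −1.01 with adjusted p from 0.0124 to 0.0160, beside 24.8% of all genes. Of the 11496 protein-coding genes, 3427 were then called lower and 2154 higher. Among the lists below, 17 of 33 antiviral, 8 of 15 signalling, 4 of 9 Oas and 2 of 9 capping genes were lower. In each of these lists 1 gene was called higher. Rsad2, Cmpk2, Mx1 and Mx2 were called in neither direction. With CPM in place of TPM, limma called Ifit3, Ifit2, Ifit1 and Ifit1bl1 lower, beside 14.3% of all genes tested, and Ifit1bl2 higher, beside 40.3%. Without the filter Ifit1bl2 had a log2 ratio of 0.97 (SE 0.13, limma adjusted p = 0.0148), where 33.5% of genes were called higher.

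**Figure D4:**
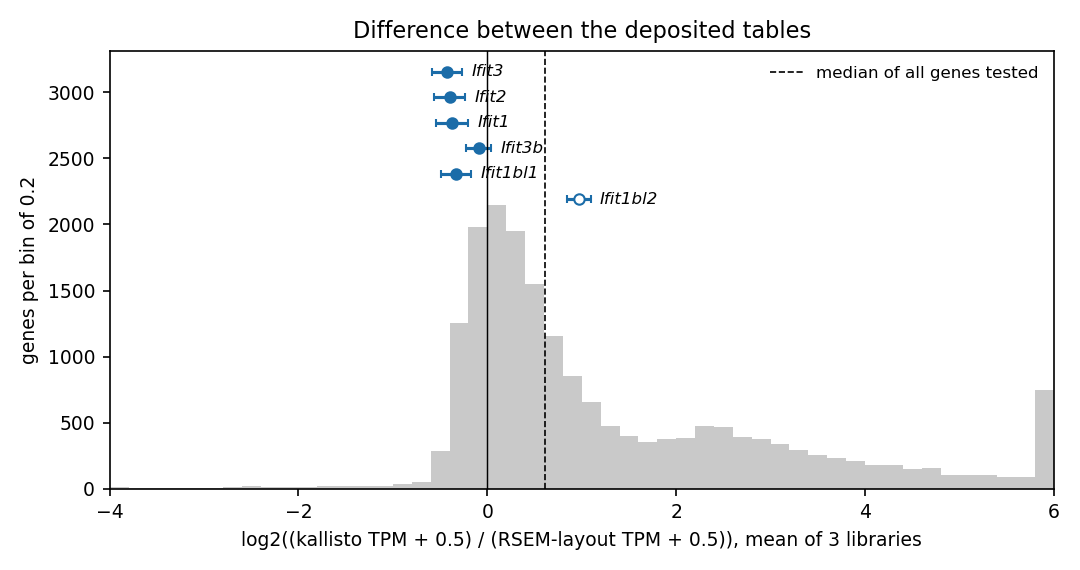
Number of genes per bin of the log2 ratio of kallisto over RSEM-layout TPM, each plus 0.5, averaged over 3 libraries for 19070 genes, where the outermost bars also hold values past the axis. Points are Ifit genes with their SE, placed at arbitrary heights, and Ifit1bl2 (open) is from the fit without a filter. The members other than Ifit1bl2 lie left of the median of 0.61.

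No member has an annotated transcript that retains an intron, and reads within introns have no row in these tables. Ifit3, Ifit3b, Ifit1 and Ifit1bl2 have 1 transcript each. Ifit2 has 2, and Ifit2-201 held 99.7, 100 and 99.9% of its TPM in replicates 1, 2 and 3. Ifit1bl1 also has 2, which are 2200 and 2193 bases long and were hard to separate. Ifit1bl1-202 held 83.0, 75.7 and 71.3% of the gene's TPM in kallisto, against 73.9, 100 and 65.3% in the RSEM layout, and its deposited interval in replicate 2 ran from 2.88 to 8.03 TPM. It was the higher transcript in every library of either table.

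The promoters of 5 of the 6 genes held the letters of an interferon-stimulated response element. The core searched was GAAANNGAAA on both strands, in RefSeq windows (GRCm38.p6) from 250 bases before to 50 after each annotated start, and all 6 symbols were matched. Of the 27025 genes in the table, 3.99% had a match in at least 1 window, and of its 32851 windows 3.44% held at least 1 match and 0.225% at least 2. The members had 9 windows, of which 6 held a match. Ifit3 had matches at −156 and −122 from its start and Ifit3b at −188 and −154, so that the spacing was the same. Ifit1bl1 had 1 match in each of its windows, at −104 and −23. Neither window of Ifit2 nor the second window of Ifit1bl2, inside that gene, held these letters, which says nothing of other forms of the element or of sequence outside the windows. The stretches are shown on the strand of the gene, with matches in capitals, because the near copies carry the same promoter letters at very different RNA levels.
Ifit3, chr19:34583353-34583436, + strand: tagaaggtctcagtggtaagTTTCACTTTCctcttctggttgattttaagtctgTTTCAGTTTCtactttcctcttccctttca
Ifit3b, chr19:34607749-34607832, + strand: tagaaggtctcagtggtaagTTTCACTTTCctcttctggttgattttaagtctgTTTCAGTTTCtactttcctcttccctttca
Ifit1bl1, chr19:34602043-34602092, − strand: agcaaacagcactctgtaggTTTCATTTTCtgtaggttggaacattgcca
The 84 bases of Ifit3 and Ifit3b are identical, and over the 268 bases that their windows have in common when shifted by 32 bases, 201 were identical without gaps. An unbroken run of 169 bases was among them. No comparison with gaps was made, so the 201 bases are not an identity of the whole promoters.

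Ifit1 and Ifit1bl2 lie head to head, with 127 bases between their first exons. This interval, which holds both matches of either gene, is shown on the + strand because it lies upstream of a gene with much RNA and of one with almost none.
Ifit1 and Ifit1bl2, chr19:34640744-34640870, + strand: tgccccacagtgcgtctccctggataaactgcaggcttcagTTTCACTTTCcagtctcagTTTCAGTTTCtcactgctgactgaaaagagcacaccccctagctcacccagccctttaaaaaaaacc
Ifit1, to the right of it, had 73.3, 63.5 and 76.9 TPM, and Ifit1bl2, to the left, had 0.50, 0.53 and 0.25 TPM. Ifit1 over Ifit1bl2 was 147, 120 and 308 in RSEM-layout TPM and 46.8, 34.8 and 46.8 in kallisto TPM. The direction was the same in either table, and the size of the ratio differed by more than 3-fold between them.

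Ifit3, Ifit2, Ifit3b and Ifit1bl1 were highest in replicate 1 and lowest in replicate 3 in TPM, by different factors, and Ifit1 departed most from this pattern. Replicate 1 over replicate 3 was 2.92 for Ifit3b, 2.90 for Ifit1bl1, 1.87 for Ifit3, 1.44 for Ifit2 and 0.954 for Ifit1 in TPM. The coefficient of variation was 48.4% for Ifit3b, 48.5% for Ifit1bl1, 30.7% for Ifit3, 17.9% for Ifit2, 9.75% for Ifit1 and 36.0% for Ifit1bl2, beside a median of 35.0% over 10011 protein-coding genes with a mean of at least 1 TPM. These values depend on the scale and on single libraries. With counts scaled by TMM they were 55.1% for Ifit3, 39.5% for Ifit2 and 32.7% for Ifit1, beside a median of 23.2%, so that Ifit2 and Ifit1 then lay above the median. Without replicate 2 the value of Ifit1 was 3.34%, and without replicate 3 it was 11.2% for Ifit2, 25.1% for Ifit3b, 26.7% for Ifit1bl1 and 4.12% for Ifit1bl2. Ratios between members do not depend on the scale of a library. Ifit3 over Ifit1 was 4.32, 3.73 and 2.20 in replicates 1, 2 and 3, and Ifit2 over Ifit1 was 3.61, 3.56 and 2.40. Ifit3b over Ifit1 was 0.316, 0.255 and 0.103, while Ifit3b over its neighbour Ifit1bl1 was 1.98, 2.03 and 1.97. That last ratio was nearly constant in the RSEM layout, and 2.01, 2.67 and 2.59 in kallisto. The starts of Ifit1bl1 and Ifit3b, which point away from each other, are 6013 bases apart.

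Which library was highest depended in part on the scale. In TPM, Ifit3, Ifit2, Ifit3b and Ifit1bl1 were highest in replicate 1, Ifit1 in replicate 3 and Ifit1bl2 in replicate 2. As a share of protein-coding TPM, all 6 were highest in replicate 1, with 1184, 675 and 564 for Ifit3 and 274, 181 and 256 for Ifit1 in replicates 1, 2 and 3. The same held for all 6 in CPM, in counts scaled by TMM or by DESeq2 size factors, and in kallisto TPM, which were compared after the data had been seen. Of the 10011 protein-coding genes, 27.9% were highest in replicate 1 in CPM and likewise with TMM, 29% with DESeq2 size factors and 12.9% in kallisto TPM. Among the 5 members with a mean of at least 1 TPM, 4 were highest in replicate 1 in TPM, beside 7.17% of the 10011 protein-coding genes. On the protein-coding scale these figures were 5 of 5 and 17.4%. Replicate 1 had the most starting RNA and no stromal marker count, and the part of either in this pattern was not tested.

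**Figure D5:**
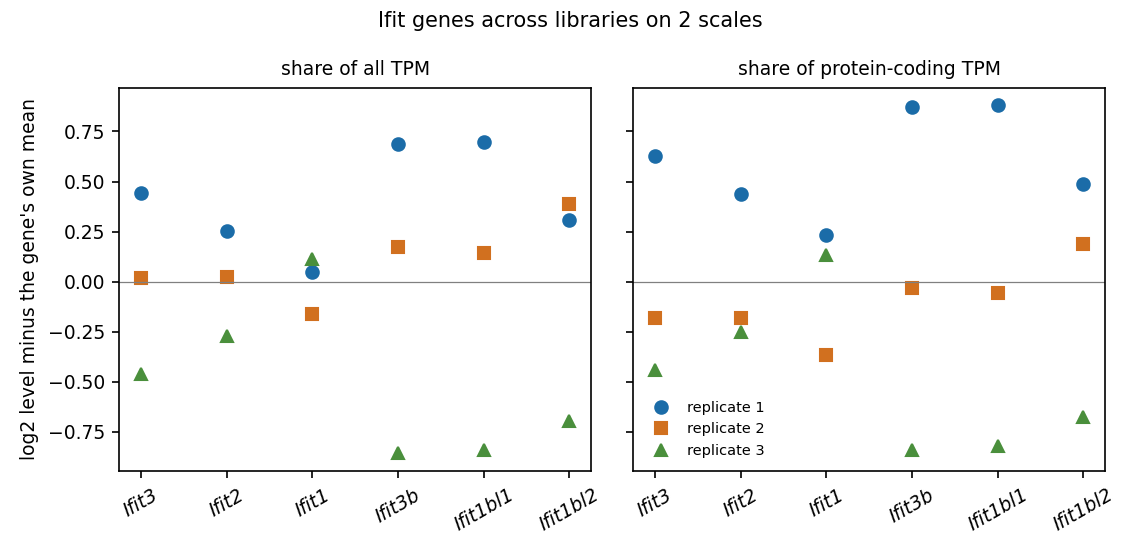
Log2 level of each Ifit gene in the 3 libraries minus its own mean, as TPM (left) and as share of protein-coding TPM (right). Each symbol is 1 library. Ifit3b and Ifit1bl1 spread most, and Ifit1 is highest in replicate 3 on the left scale and in replicate 1 on the right scale.

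The protein-coding genes nearest to Ifit3 in their pattern over the libraries were sought among 4544 with a mean of at least 10 TPM, by the root mean square difference of centred log2 TPM over 3 libraries. They were Rprd1b at 0.018 with 46.3, 34.2 and 25.2 TPM in replicates 1, 2 and 3, Ublcp1 at 0.019 with 27.7, 21.2 and 14.8 TPM, and Tcf7l2 at 0.024 with 35.5, 27.5 and 19.6 TPM. Ifit2 stood at 0.16 from Ifit3, with 84 genes nearer, and Ifit3b at 0.28, with 342 nearer. The distance of Ifit1 was 0.42, with 1058 genes nearer. With 3 libraries many genes share a pattern, so this is a description only.

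Set beside other antiviral families, the Ifit cluster lay far below the Mx genes and the viperin locus and near the Oas family. The catalytically active members of that family make the 2-5A messenger that activates RNase L. The Ifit cluster averaged 4.89 in log2(TPM + 1) over its 6 genes, against 4.59 over the 12 Oas genes. The difference was 0.55, 0.45 and −0.08 in replicates 1, 2 and 3, or 0.30 ± 0.34 (SD, n = 3; exact sign-flip p = 0.50). It turned to −0.33 when genes below a mean of 1 TPM were left out, and to −0.039 with kallisto TPM. Oas1d, Oas1e and Oas1f had at most 3 counts in each library, while Oasl2 had 870, 769 and 899 TPM and Oasl1 472, 221 and 368 TPM. Oasl2 was above every Ifit gene in all 3 libraries, and Oasl1 in replicates 1 and 3. Oas1c was the lowest detected gene of the family, with 1.80, 2.84 and 1.34 TPM.

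Against Rsad2, which encodes viperin, and Cmpk2, its neighbouring nucleotide kinase gene, the Ifit cluster differed by −3.61 ± 0.35 in mean log2(TPM + 1), negative in all 3 (SD, n = 3; exact sign-flip p = 0.25). It was −2.73 with genes of at least 1 TPM and −4.40 with kallisto TPM. Against the GTPase genes Mx1 and Mx2 the difference was −4.24 ± 0.07, again negative in each library (exact sign-flip p = 0.25), and −3.36 with genes of at least 1 TPM. The cluster mean includes 3 genes of low level, and the highest members were closer. Ifit3 had 317, 237 and 169 TPM in replicates 1, 2 and 3, against 274, 144 and 169 TPM for Cmpk2, 929, 553 and 649 TPM for Rsad2, 411, 271 and 228 TPM for Mx2 and 1185, 1362 and 754 TPM for Mx1. In RSEM-layout TPM, Ifit3 lay above Cmpk2 in replicates 1 and 2 and was within 1 TPM of it in replicate 3. In kallisto TPM it lay below Cmpk2 in all 3 libraries, with 286, 152 and 120 against 489, 220 and 276. Ifit3 lay below the other 3 genes in all 3 libraries in either table.

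The genes listed for type I interferon signalling, which include inhibitors of the pathway, were all detected apart from Ifna4. Of 16 genes in the list, Irf1 led with 618 TPM on average and Stat2 followed with 478 TPM, both transcription factors, and Socs1, an inhibitor of the pathway, was lowest of those detected at 1.82 TPM. Ifnb1, the gene of interferon beta, had 6.87, 3.28 and 11.9 TPM from 60, 21 and 85 counts and was highest in replicate 3. In TPM Ifit1 was the one member highest there and the other 5 were lowest there. In counts scaled by TMM, every member was highest in replicate 1. On that scale Ifit2 and Ifit1 were lowest in replicate 2 and the other members in replicate 3. In the comparison of tables, limma called 3 of 15 signalling genes higher in kallisto and 0 lower, beside 46.2 and 0.766% of all genes, with a median log2 ratio of 0.12. Ptpn6, a phosphatase gene, had 1.42 (SE 0.19, limma adjusted p = 0.0063), Jak1 0.92 and Usp18 0.49. Of 33 antiviral interferon-stimulated genes tested, 6 were higher and 0 lower, beside the same 46.2 and 0.766%, with a median of 0.13 beside 0.61 over all genes. Of the 11496 protein-coding genes in the test, 4194 were higher and 36 lower, with a median of 0.38. Tor3a was highest among the 33 antiviral genes, with 1.62, followed by Xaf1 at 0.92 and Bst2 at 0.84.

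Across the libraries, 19 of the 33 antiviral interferon-stimulated genes with at least 1 TPM were highest in replicate 1, as were 5 of 9 Oas genes and 5 of 15 signalling genes, against 7.17% of protein-coding genes. On the protein-coding scale the counts were 26 of 33, 8 of 9 and 8 of 15, against 17.4%. The median log2 of replicate 1 over replicate 3 in TPM was 0.28 over the antiviral genes and −0.26 over all protein-coding genes. The 5 Ifit genes had a median of 0.90. Mx1 and Parp14, an ADP-ribosyltransferase gene, were the highest genes of the antiviral list with means of 1100 and 1006 TPM, Ifi27l2a was the lowest detected with 10.6 TPM, and Ifi44l had 0 counts in each library.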

How the data were processed

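The authors deposited, for each of the 3 libraries, a gene table and a transcript table in the layout of RSEM and a transcript table in the layout of kallisto, per the file headers and file notes on mm10 with GENCODE M21. Expected counts were deposited by the authors as maximum-likelihood estimates per gene and transcript, with a posterior SD and interval bounds that belong to the posterior mean and can lie beside the TPM. TPM values were computed by the authors from effective lengths and scaled to a fixed sum per library. The aligner, the versions and the strand setting were not given in the sources used here, and without strand overlapping genes cannot be separated. Kallisto values were summed here per gene through the gene identifier in each row.

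Rows naming no gene held 1.94, 0.269 and 0.386% of counts in replicates 1, 2 and 3 and were left out. No libraries were copies of each other, with a chi-square per gene of 61.5 to 102 over pairs. Tables were compared with limma 3.58.1 (pseudocount 0.5 TPM, mean of at least 1 TPM over kallisto and RSEM-layout values together). Scaling factors came from edgeR 4.0.16 and DESeq2 1.42.0. Contrasts between lists used log2(TPM + 1) and exact sign flips. Shared words, coding identity and motifs were computed with Biopython 1.88 from the GENCODE M21 transcripts and RefSeq promoters. The limma step was also run on simulated log2 ratios. The differences set there were larger than the ratio of any member, so that run does not show whether differences of the members' size are found. A gene with at most 3 counts in each library was called undetected, a floor that covers counting error only.

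Named genes were the members, annotated genes within 200 kb, and from each list the 2 highest, the lowest detected and the undetected genes, and up to 3 called in each direction. Genes of similar pattern were the 3 nearest to the highest member. The members, lists and tests were chosen with earlier results of these data known. Alternatives covered pseudocounts, filters, other scales, posterior means, kallisto values and leaving out each replicate.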

Additional observations from a re-analysis of the deposited data

How the results depend on the processing

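Levels depended on the scale. As a share of protein-coding TPM the means were 808 for Ifit3, 749 for Ifit2, 237 for Ifit1, 53.0 for Ifit3b, 26.6 for Ifit1bl1 and 1.40 for Ifit1bl2. With kallisto, Ifit2 had 176, Ifit1 56.0 and Ifit1bl2 1.30 TPM. Ifit3 over Ifit2 turned to −1.17 on the log2 scale in CPM, and ran from −0.028 without replicate 1 to 0.16 without replicate 3. The Ifit cluster minus the Oas family turned to −0.039 with kallisto and to −0.33 with genes of at least 1 TPM. The other 2 list contrasts and the other 4 neighbour ratios kept their direction under every alternative run. Leaving out each replicate in turn gave coefficients of variation of 20.5 to 42.9% for Ifit3, 11.2 to 25.3% for Ifit2, 3.34 to 13.5% for Ifit1, 25.1 to 69.3% for Ifit3b, 26.7 to 68.9% for Ifit1bl1 and 4.12 to 50.8% for Ifit1bl2. The low end came without replicate 3 for Ifit2, Ifit3b, Ifit1bl1 and Ifit1bl2 and without replicate 2 for Ifit1. With counts scaled by TMM the coefficient was 55.1% for Ifit3, 39.5% for Ifit2 and 32.7% for Ifit1, and with DESeq2 size factors 55.9, 40.3 and 33.2%. On the protein-coding scale it was 27.8% for Ifit2 and 20.8% for Ifit1. Ifit2-201 held 99.3% of Ifit2 TPM on average in kallisto. The comparison of tables called 8957 genes in all, between 6006 and 8924 when a replicate was left out, and 3366 of 7281 with a filter of 10 TPM. With posterior mean TPM, limma called 7657 genes higher and 2789 lower in kallisto, against 8811 and 146, and Ifit3b turned to 0.012. Centring gave 6116 and 4736, and CPM 7294 and 2594. The cause of these changes was not tested. With 3 libraries no sign-flip test can pass 0.05. Ifit1bl2 rests on few counts, 11.0 to 23.2 in the RSEM layout and 86.9 to 93.2 in kallisto.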

Other observations

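A list of 10 genes for RNA capping, cap methylation and cap-dependent translation, in which Eif4e, Eif3a, Eif3c and Eif3e are translation initiation factor genes, was set beside the Ifit genes, since Ifit1 reads the methylation of the cap. In it Cmtr1, the interferon-inducible methyltransferase of the first transcribed nucleotide, was highest with 120, 117 and 221 TPM in replicates 1, 2 and 3. Its expected counts were 2872, 2724 and 2644 and its kallisto TPM 185, 174 and 208, so that replicate 3 stood apart less in kallisto TPM and had the fewest counts. Eif3a, a translation initiation factor gene, followed with 60.7, 112 and 125 TPM. Cmtr2 was the lowest, at 0.14, 0.39 and 0.49 TPM. Of the 9 genes with a mean of at least 1 TPM, 0 were highest in replicate 1 in TPM and 1 on the protein-coding scale, against 4 and 5 of 5 Ifit genes and 7.17 and 17.4% of all protein-coding genes. Their median log2 of replicate 1 over replicate 3 was −0.83, against 0.90 for the Ifit genes and −0.26 for all protein-coding genes. In counts scaled by TMM, 3 of the 9 genes were highest in each library. The difference from the Ifit genes was not tested. In the comparison of tables limma called 3 of 9 higher in kallisto and 0 lower, beside 46.2 and 0.766% of all genes. Of 11496 protein-coding genes, 4194 were called higher and 36 lower. Among the 3 was Eif4e, the cap-binding factor gene, with a log2 ratio of 1.82 (limma adjusted p = 0.0027).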
